A study of Mus musculus with 12 samples.

Results

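The genes described here mark the proliferating crypt of the intestine and the Wnt signal that maintains it. The list held 10 genes, Lgr5, Ascl2, Axin2, Sox9, Myc, Ccnd1, Lrig1, Bmi1, Ephb2 and Cd44, and members were all probe sets whose platform gene symbol was one of them. On the array 9 of the 10 genes were matched by 19 of the 22626 probe sets tested, and Ephb2 had no probe set under its symbol. Transcript levels were measured in jejunal epithelium of male C57BL/6 mice aged 6 to 8 weeks, with RNA of 3 mice pooled on each of 12 one-colour Affymetrix arrays. The jejunum was taken as the middle portion of the small intestine and its epithelial layer was scraped off. All mice ate a powdered soya-free RM3 diet for 14 days. The 4 groups of 3 pools were wild-type mice kept on that diet (wild-type control), wild-type mice given the diet with the plant flavonol quercetin at 6.2 g per kg (7 mg per mouse) for 24 hours (wild-type quercetin), cytochrome P450 reductase null mice on the plain diet (POR-null control) and such mice on quercetin (POR-null quercetin). The labels name neither the tissues in which the reductase is lost nor the way the null allele was made, and the level of the targeted gene was not analysed here. Animals were housed 3 per cage, and whether a pool was a cage is not stated.

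Crypts hold the stem cells that renew the intestinal lining. Wnt ligands and R-spondins, which are bound by LGR receptors, stabilise β-catenin in the crypt base, and β-catenin with TCF/LEF factors then drives genes for stem cell identity, proliferation and feedback inhibition of the pathway itself. Cells that leave the crypt lose this signal and differentiate, so only the part of a scraped epithelial sample that comes from crypts carries this signal. In pooled tissue RNA, fewer crypt cells and less RNA per crypt cell cannot be told apart.

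The arrays were alike in scale, with medians of 5.94 to 6.01 log2 units, and a median within-group standard deviation (SD) of 0.12 over all probe sets. Enterocyte markers were bright, with 5 of 5 measured genes above the median of all probe sets and means of 11.9 to 13.6, the highest being those of Fabp2 and Apoa4. Of the Paneth markers, 4 of 5 were above that median, of T cell markers 7 of 8, of B and plasma cell markers 5 of 5, of smooth muscle markers 3 of 7 and of fibroblast markers 1 of 7. Most T cell, B cell and plasma cell markers were thus brighter than the median probe set, and most smooth muscle and fibroblast markers were not. Without detection calls, it is not known which markers were above background. Several members are also expressed outside the crypt, Cd44 and Myc in lymphocytes and Ccnd1 in stromal cells among them.

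Regulatory sequence near the start sites was available from RefSeq (build GRCm38.p6) for 6 of the 10 genes (Ascl2, Axin2, Lrig1, Bmi1, Ephb2 and Cd44). The 250 bases before the start were searched on both strands for the TCF/LEF core motif ATCAAAG and for the E-box CACGTG, the motif bound by MYC. The TCF/LEF core was in 0 of the 6 windows and in 3.21% of all 32851 windows, and the E-box was in 1 of the 6, that of Bmi1, and in 6.02% of all windows. Shown here are Axin2, the general feedback target of the pathway, on chr11:108920099-108920348 (plus strand), and Bmi1, on chr2:18676768-18677017 (plus strand), with the E-box in capitals, whose first base lies 215 bases before the start. A match is a string of letters and no measured binding site, and a window without one says nothing of sites elsewhere.
Axin2: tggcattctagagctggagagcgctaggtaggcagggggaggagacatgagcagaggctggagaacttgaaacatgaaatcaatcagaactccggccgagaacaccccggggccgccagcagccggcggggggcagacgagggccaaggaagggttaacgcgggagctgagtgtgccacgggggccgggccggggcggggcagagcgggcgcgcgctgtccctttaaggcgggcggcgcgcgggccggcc
Bmi1: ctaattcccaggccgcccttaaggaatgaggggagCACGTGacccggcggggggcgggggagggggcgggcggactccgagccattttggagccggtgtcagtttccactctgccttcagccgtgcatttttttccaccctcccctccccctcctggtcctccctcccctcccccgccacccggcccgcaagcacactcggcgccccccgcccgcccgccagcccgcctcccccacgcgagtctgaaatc

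No member changed past the test in any of the 7 comparisons. The test was limma's moderated test on all probe sets, two-sided, with Benjamini-Hochberg adjustment and an adjusted p under 0.05 counted as a call. For the quercetin effect, 0 of the 19 member probe sets were called in wild-type mice (0.0133% of all probe sets were), 0 in POR-null mice (0% of all) and 0 in the average over genotypes (0.00884% of all). For genotype, POR-null against wild-type, 0 were called on the control diet, on the quercetin diet and in the average, and 0 for the interaction, the difference between the quercetin effects of the genotypes, against 0% of all probe sets in each of these 4. The smallest adjusted p of any member by limma was 0.472, for Ccnd1 in the quercetin effect of wild-type mice. At an unadjusted p under 0.05, 4 of 19 member probe sets passed for quercetin in wild-type mice, where 8.72% of all probe sets did. They were Axin2, Myc and a pair of Ccnd1 probe sets that measure the same transcript. The average quercetin effect had 1 of 19, again Ccnd1 (7.82% of all). The remaining comparisons had 0 of 19, against 4.02% of all probe sets for quercetin in POR-null mice, 6.09% for genotype on the control diet, 3.88% for genotype on the quercetin diet, 5.04% for the interaction and 5.01% for the average genotype effect.

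**Figure D1:**
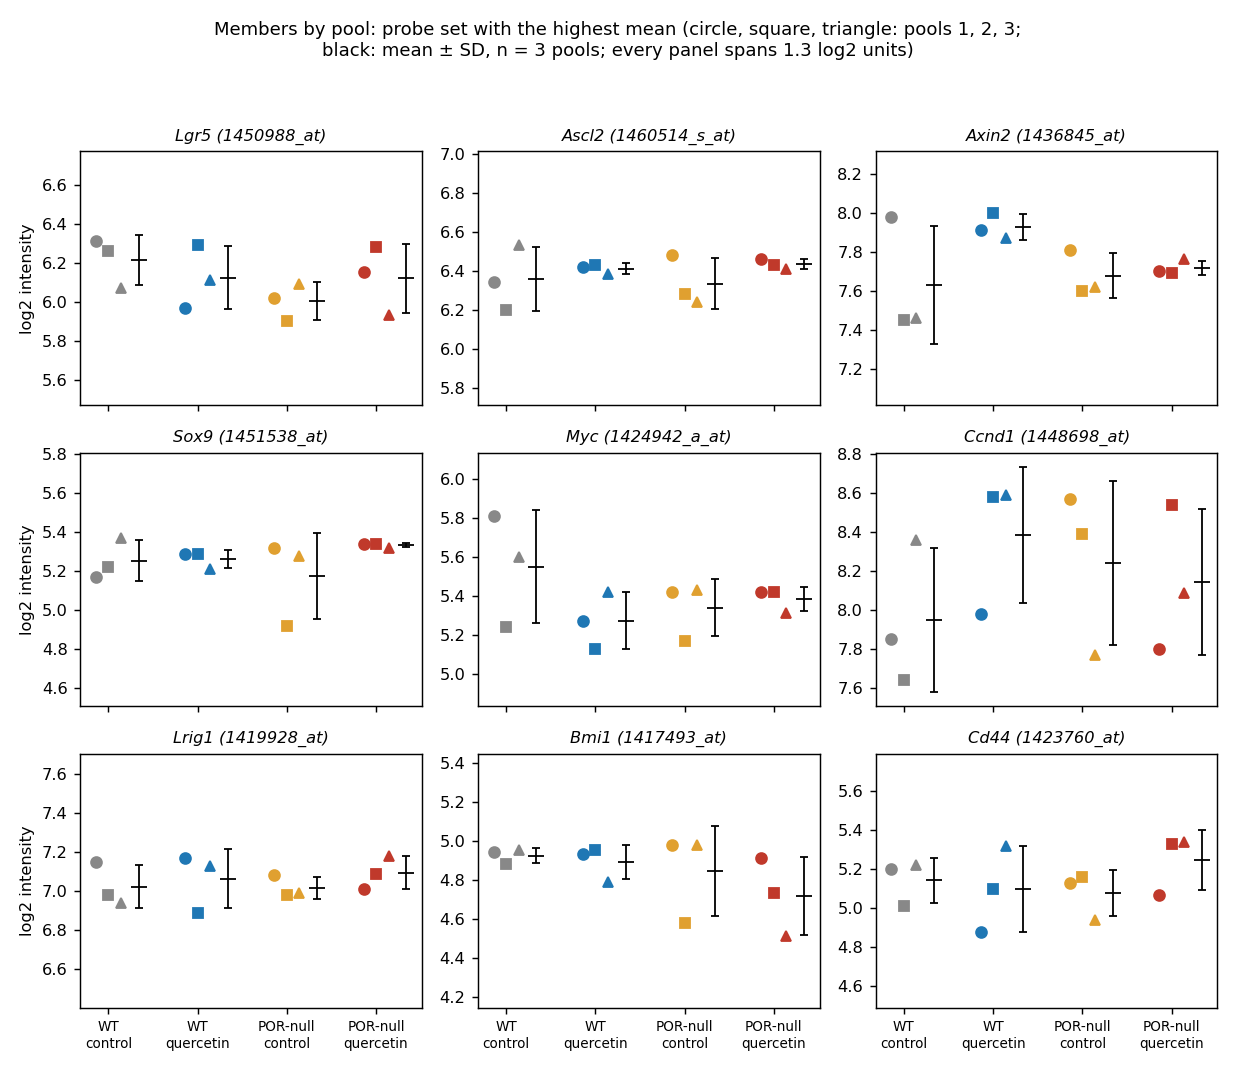
Log2 intensity (vertical axis) of the 9 measured members in each of the 12 pools, by group (horizontal axis), for the probe set with the highest mean of each gene; symbols are pools, black marks the mean ± SD of 3 pools, and each panel spans the same range. Ccnd1 has the widest scatter within groups, and groups overlap in most panels.

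Lgr5, the R-spondin receptor that marks crypt base stem cells, had 1 probe set, with a mean of 6.12 log2 units, just above the median of all probe sets (5.99). Wild-type control pools read 6.31, 6.26 and 6.07, wild-type quercetin pools 5.97, 6.29 and 6.11, POR-null control pools 6.02, 5.90 and 6.09, and POR-null quercetin pools 6.15, 6.28 and 5.93. The lowest single value was in POR-null control pool 2 and the highest in wild-type control pool 1, and every pair of groups overlapped. The average quercetin difference was 0.01 ± 0.08 log2 units (SE, n = 6 pools per diet), with a 95% interval of -0.15 to 0.18. On the control diet POR-null pools differed from wild-type pools by -0.21 ± 0.11 (interval -0.44 to 0.02; adjusted p = 0.824, limma), whereas on quercetin the difference was 0.00 ± 0.11 (-0.24 to 0.23). The interaction, 0.21 ± 0.15, did not pass either (adjusted p = 0.956 was the smallest of any member in that comparison). All intervals here are for single probe sets and are not widened for the number of comparisons.

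Ascl2, the transcription factor that sets stem cell fate downstream of Wnt, was read by 3 probe sets that disagreed in level. The brightest (1460514_s_at) had a mean of 6.38, while 1422396_s_at and 1432018_at, at 3.52 and 3.29, were brighter than only 4.71% and 2.21% of probe sets and carry little information on change. On the brightest, wild-type control pools read 6.34, 6.20 and 6.53 and wild-type quercetin pools 6.42, 6.43 and 6.38. POR-null control pools read 6.48, 6.28 and 6.24 and POR-null quercetin pools 6.46, 6.43 and 6.41. The quercetin pools of both genotypes lay inside the range of their own controls, so that the difference was small and the groups overlapped. The average quercetin difference was 0.08 ± 0.06 (SE; interval -0.06 to 0.22), and the average genotype difference was 0.00 ± 0.06 (-0.14 to 0.14).

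Axin2 encodes a scaffold of the β-catenin destruction complex and is induced by Wnt as a feedback inhibitor, which makes it a common readout of the pathway. Its bright probe set (1436845_at, mean 7.74) read 7.98, 7.45 and 7.46 in wild-type control pools and 7.91, 8.00 and 7.87 in wild-type quercetin pools. In POR-null mice it read 7.81, 7.60 and 7.62 in control pools and 7.70, 7.69 and 7.76 in quercetin pools. Wild-type control pool 1 stood with the quercetin pools, well above the other control pools, so the groups of wild-type mice overlapped. The quercetin difference in wild-type mice was 0.30 ± 0.12 (SE, n = 3 against 3 pools; interval 0.04 to 0.55; unadjusted p = 0.0261, adjusted p = 0.496, limma; exact permutation p = 0.3, where 0.1 is the smallest that 3 against 3 allow). Without wild-type control pool 1 it was 0.47 (adjusted p = 0.0773, the smallest of any member when single pools were left out), and without control pool 2 or pool 3 it was 0.21 in both cases. In POR-null mice the quercetin difference was 0.04 ± 0.12 (-0.22 to 0.30), and the interaction, -0.26 ± 0.17, had an interval of -0.62 to 0.11 and did not pass.

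On the quercetin diet every POR-null pool was below every wild-type pool on this Axin2 probe set, by -0.21 ± 0.12 on average (interval -0.47 to 0.05; adjusted p = 0.997, limma; exact permutation p = 0.1). Groups without overlap were found for 2 of 19 member probe sets in that comparison, Axin2 and a Sox9 probe set, against 9.18% of all probe sets. They were found for 2 of 19 in the quercetin effect of wild-type mice, both of Ccnd1 (11.6% of all), and for 0 of 19 in the quercetin effect of POR-null mice (9.06% of all) and in the genotype effect on the control diet (9.44% of all). The dimmer Axin2 probe set (1421341_at, mean 5.32) gave 0.08 ± 0.12 for quercetin in wild-type mice and 0.02 ± 0.12 for genotype on quercetin. It followed the bright one over the 12 pools with a Pearson correlation of 0.60 after each group's mean was taken off.

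Sox9, a transcription factor of crypt progenitors and Paneth cells, was dim on both of its probe sets (means 5.26 and 4.98, below the median of all). The brighter (1451538_at) read 5.17, 5.22 and 5.37 in wild-type control pools and 5.29, 5.29 and 5.21 with quercetin. The POR-null values were 5.32, 4.92 and 5.28 on the control diet and 5.34, 5.34 and 5.32 with quercetin. The low value was that of POR-null control pool 2, and the POR-null quercetin pools were tightly grouped just above the wild-type quercetin pools. That genotype difference was 0.07 ± 0.10 (SE, n = 3 against 3; interval -0.14 to 0.28). The other probe set gave -0.04 ± 0.09 for it, the opposite sign.

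Myc, the growth and ribosome synthesis regulator, had 1 probe set with a mean of 5.39, again below the median of all. It read 5.81, 5.24 and 5.60 in wild-type control pools and 5.27, 5.13 and 5.42 in wild-type quercetin pools. POR-null control pools read 5.42, 5.17 and 5.43, and POR-null quercetin pools 5.42, 5.42 and 5.31. Wild-type control pools 1 and 3 were the highest of all 12, while pool 2 lay within the range of the other groups. For quercetin in wild-type mice the difference was -0.28 ± 0.13 (interval -0.55 to -0.006; unadjusted p = 0.0457, adjusted p = 0.569, limma; exact permutation p = 0.3). It ranged with the control pool left out, from -0.15 without pool 1 to -0.43 without pool 2. In POR-null mice it was 0.04 ± 0.13 (-0.23 to 0.31), and the interaction was 0.32 ± 0.18 (-0.06 to 0.70). The signs of Myc and Axin2 thus differed in wild-type mice, although both are Wnt targets, and neither difference was called.

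Ccnd1, cyclin D1, which carries cells from G1 towards DNA replication, varied more than the other members. Its 3 probe sets had within-group SDs of 0.23, 0.55 and 0.38 log2 units (1417419_at, 1417420_at and 1448698_at), higher than those of 94.9%, 99.7% and 99.0% of all probe sets. The brightest, 1448698_at, read 7.85, 7.64 and 8.36 in wild-type control pools and 7.98, 8.58 and 8.59 with quercetin. The POR-null values were 8.57, 8.39 and 7.77 on the control diet and 7.80, 8.54 and 8.09 with quercetin. In both genotypes the control and quercetin pools overlapped on it. The second, 1417420_at, read 7.18, 6.32 and 7.34 in wild-type control pools and 7.40, 7.75 and 7.87 with quercetin. The POR-null values were 8.15, 7.62 and 6.61 on the control diet and 7.02, 7.91 and 7.15 with quercetin. The spread was widest among the control pools of both genotypes on 1417420_at, and the probe sets moved together over the pools, with correlations of 0.75, 0.89 and 0.90 after group means were taken off. The third, 1417419_at, read 6.40, 6.51 and 6.60 in wild-type control pools and 6.68, 7.01 and 7.01 in wild-type quercetin pools, which did not overlap, and 6.42 to 6.89 and 6.49 to 7.11 in the POR-null control and quercetin pools.

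In wild-type mice the quercetin difference of Ccnd1 was positive on each probe set, at 0.40 ± 0.15, 0.73 ± 0.34 and 0.43 ± 0.24 log2 units (SE, n = 3 against 3 pools) for 1417419_at, 1417420_at and 1448698_at. As ratios these were 1.32, 1.65 and 1.35, with intervals of 1.05 to 1.65, 1.01 to 2.72 and 0.95 to 1.92. The adjusted p by limma was 0.472, 0.569 and 0.627, and the exact permutation p was 0.1, 0.1 and 0.2. In POR-null mice the same differences were 0.11 ± 0.15, -0.10 ± 0.34 and -0.10 ± 0.24, and the interaction was -0.29 ± 0.22, -0.83 ± 0.48 and -0.53 ± 0.34, none of them called. The spread leaves room for sizeable differences in either direction, since on 1417420_at the interval in POR-null mice ran from -0.82 to 0.62.

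**Figure D2:**
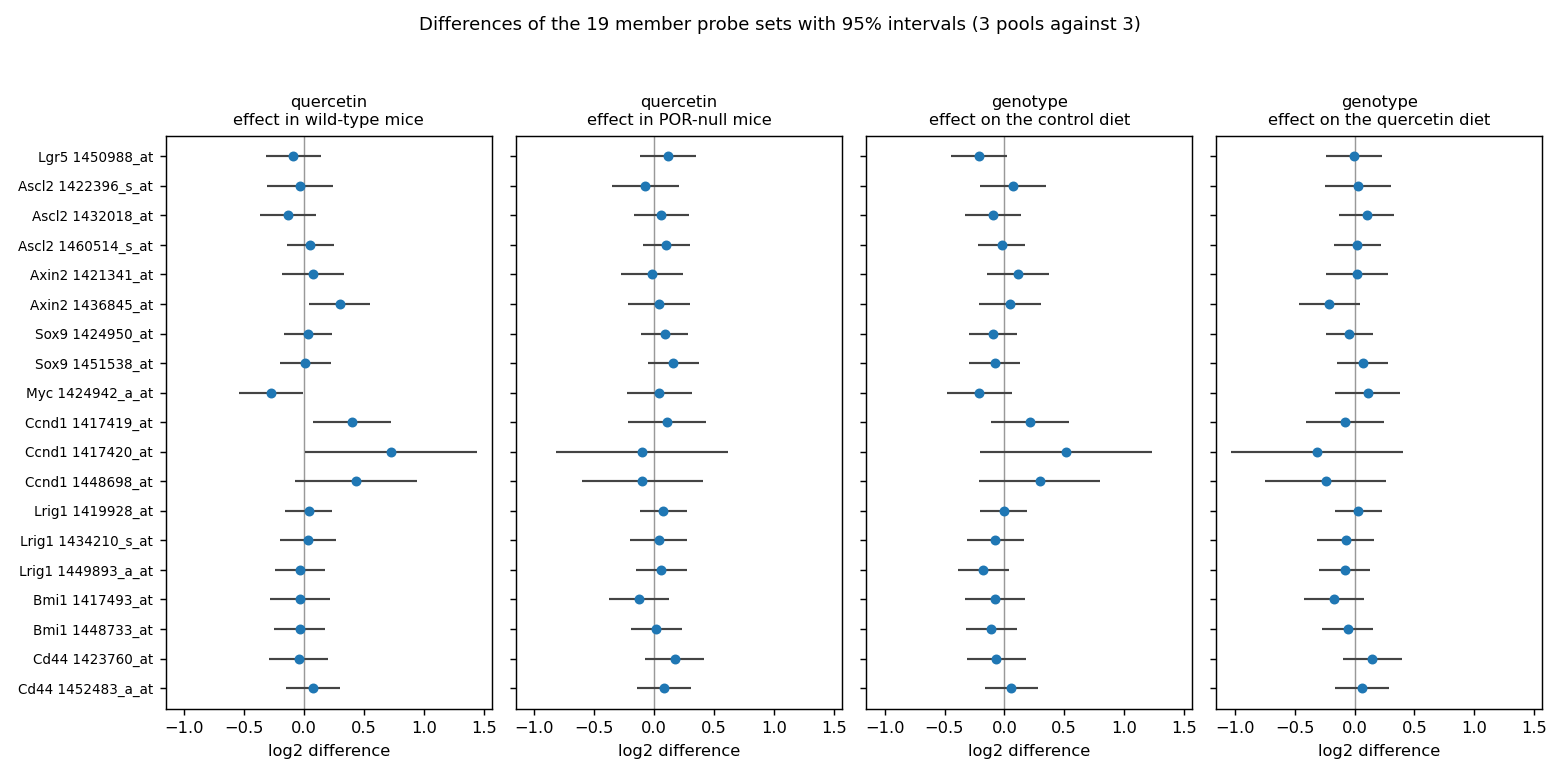
Log2 differences (horizontal axis) of all 19 member probe sets (rows) in 4 comparisons of 3 pools against 3, with quercetin minus control in the left pair of panels and POR-null minus wild-type in the right pair; points are the fitted differences and bars their 95% intervals. The bars of Ccnd1 1417420_at are the widest, and all bars outside the quercetin effect in wild-type mice cross 0.

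The pools lowest on Ccnd1 1417420_at were also low in markers of other crypt cells. Paneth cell markers (Lyz1, Itln1, Mmp7, Pla2g2a and Defa3, the antimicrobial cells of the crypt base), as a mean of log2 values centred over the 12 pools, were lowest in wild-type control pool 2 and POR-null control pool 3, both at -0.525, against -0.20 to 0.35 in the other pools. The 19 measured proliferation genes were lowest in the same pools, at -0.23 and -0.22, against -0.14 to 0.19 elsewhere. The further Wnt and crypt target genes, described below, were lowest there too, at -0.10 and -0.12. So were the further stem cell markers, at -0.14 and -0.10. These lists share genes, and the target list also holds Mmp7. The Wnt pathway, Notch and BMP, and related gene lists did not have both pools as their lowest. Ccnd1 1417420_at was lowest in these pools as well, at 6.32 and 6.61, and so was 1448698_at, at 7.64 and 7.77. On 1417419_at these pools read 6.51 and 6.42, and the lowest value was 6.40, in wild-type control pool 1. Outside Ccnd1, the only member probe set lowest in both pools was Ascl2 1460514_s_at, at 6.20 and 6.24. Without wild-type control pool 2 the quercetin difference of Ccnd1 1417420_at in wild-type mice was 0.41 in place of 0.73. That of 1448698_at was 0.28 in place of 0.43, while 1417419_at stayed at 0.40. With the Paneth mean as a covariate, a setting added after the values were seen, the differences were 0.25, 0.01 and 0.02 for 1417419_at, 1417420_at and 1448698_at. The average quercetin difference of 1417420_at was 0.31 ± 0.24 with all pools, -0.06 without both of these pools and -0.44 with the covariate (unadjusted p = 0.0241, adjusted p = 0.906, limma). The Paneth mean itself differed with diet, being positive in every quercetin pool, with a median gene difference of 0.38 for the average quercetin effect. As a covariate it can therefore also take out a quercetin difference. Beyond these values, the part of Paneth or proliferating cells in the Ccnd1 differences was not tested.

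Levels of other marker lists also differed between pools of the groups compared. Means of 8 T cell genes were -0.29 to -0.17 in wild-type control pools, below the other 9 pools, which lay between -0.06 and 0.22. Means of 7 genes of the distal small intestine were -0.69, -0.57 and 0.18 in wild-type control pools, 0.06, 0.60 and 0.90 in their quercetin counterparts. In POR-null mice they were -0.07, 0.05 and 0.28 without quercetin and -0.39, -0.38 and 0.02 with it. For quercetin in wild-type mice 1 of these 7 distal genes was called and 6 were higher at an unadjusted p under 0.05 (median 0.54). Of the 8 T cell genes 0 were called and 5 were higher at an unadjusted p under 0.05 (median 0.30). Over all probe sets, 0.0133% were called in that comparison and 8.72% had an unadjusted p under 0.05. With the distal minus the proximal marker mean as a covariate, the wild-type quercetin difference was 0.16, 0.38 and -0.11 for Ccnd1 1417419_at, 1417420_at and 1448698_at. It was 0.42 for Axin2 1436845_at and -0.33 for Myc. This covariate was itself higher on average with quercetin in wild-type mice, so it can also take out a quercetin difference. Means of 7 smooth muscle genes were 0.79 in wild-type control pool 3 and 0.54 in POR-null control pool 1, the pool highest on Ccnd1 1417420_at, against -0.29 to 0.24 in the other pools. Without these pools the wild-type quercetin difference was 0.45, 0.92 and 0.64 for Ccnd1 1417419_at, 1417420_at and 1448698_at, again not called (adjusted p = 0.511, 0.459 and 0.482, limma), and the average quercetin difference was 0.32, 0.58 and 0.35. The part of T cells in the Ccnd1, Axin2 and Myc differences was not tested, nor was that of intestinal region beyond these values.

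**Figure D3:**
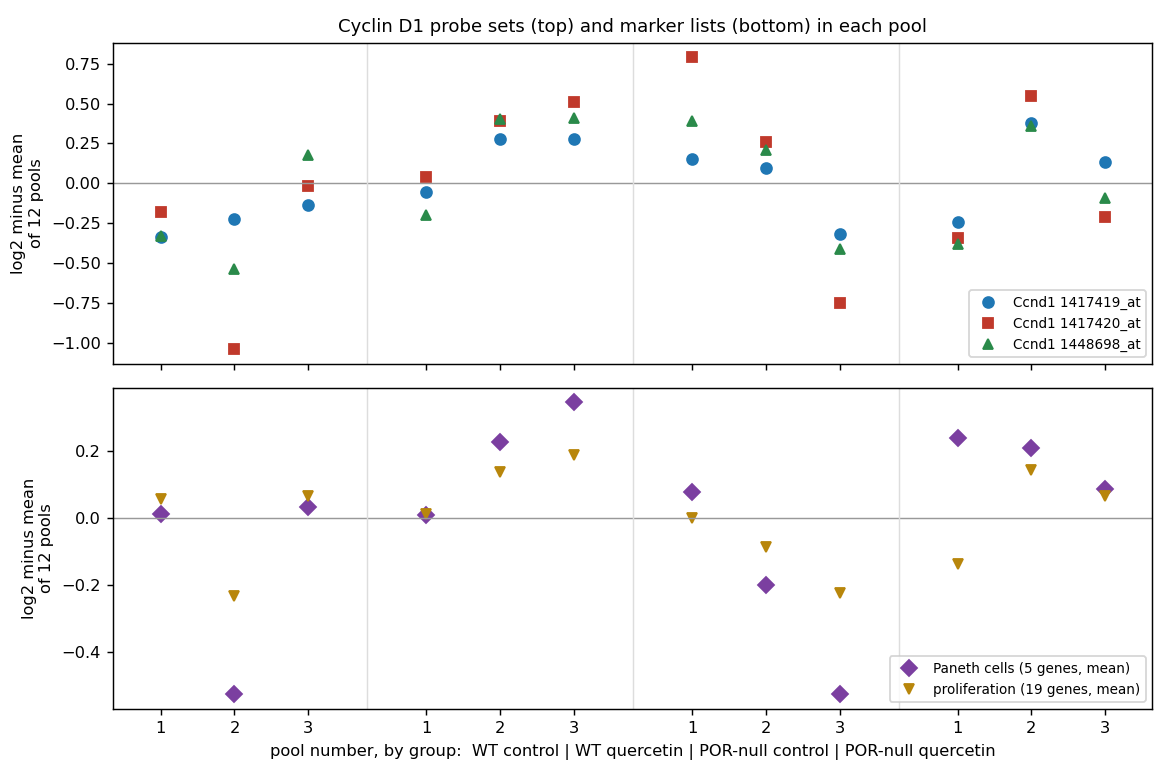
Log2 level minus the mean of the 12 pools (vertical axes) in each pool (horizontal axis, by group) for the 3 Ccnd1 probe sets (top) and for the means of 5 Paneth and 19 proliferation genes (bottom). Wild-type control pool 2 and POR-null control pool 3 are the lowest pools of both marker lists and of Ccnd1 1417420_at.

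Lrig1, an inhibitor of ErbB receptors that marks crypt stem and progenitor cells, was read by 3 probe sets with within-group SDs of 0.11, 0.15 and 0.12 (1419928_at, 1434210_s_at and 1449893_a_at). The brightest (1419928_at, mean 7.05) read 7.15, 6.98 and 6.94 in wild-type control pools and 7.17, 6.89 and 7.13 with quercetin. The POR-null values were 7.08, 6.98 and 6.99 on the control diet and 7.01, 7.09 and 7.18 with quercetin. All 12 pools lay within 0.29 log2 units on this probe set. The average quercetin difference was 0.06 ± 0.07 (interval -0.08 to 0.20) and the average genotype difference 0.01 ± 0.07 (-0.13 to 0.15). The other probe sets (means 6.56 and 4.07) did not follow it uniformly, with correlations over the pools of -0.33 for 1434210_s_at and 0.62 for 1449893_a_at. On the dim 1449893_a_at the average genotype difference was -0.13 ± 0.07, the smallest p of any member for that comparison (unadjusted 0.0832, limma).

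Bmi1, the Polycomb protein used as a marker of reserve stem cells, was dim on both probe sets (means 4.84 and 4.10). On 1417493_at wild-type control pools read 4.94, 4.88 and 4.95, wild-type quercetin pools 4.93, 4.95 and 4.79, POR-null control pools 4.98, 4.58 and 4.98 and POR-null quercetin pools 4.91, 4.73 and 4.51. The 3 lowest of the 12 values were in POR-null pools, while the other POR-null pools, at 4.91 to 4.98, lay among or above the wild-type pools. The average genotype difference was -0.13 ± 0.08 (interval -0.30 to 0.05), and the second probe set gave -0.08 ± 0.07.

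Cd44, the hyaluronan receptor and Wnt target of crypt cells that lymphocytes also carry, was dim too (means 5.14 and 4.18). On 1423760_at wild-type control pools read 5.20, 5.01 and 5.22, wild-type quercetin pools 4.88, 5.10 and 5.32, POR-null control pools 5.13, 5.16 and 4.94 and POR-null quercetin pools 5.07, 5.33 and 5.34. All pairs of groups overlapped, and the highest quercetin pools of each genotype were above their controls. The quercetin difference was -0.04 ± 0.12 in wild-type mice (interval -0.29 to 0.20) and 0.17 ± 0.12 in POR-null mice (-0.08 to 0.42), with an interaction of 0.21 ± 0.16 (-0.14 to 0.56). The dimmer probe set (1452483_a_at) gave 0.07 ± 0.10 in wild-type and 0.08 ± 0.10 in POR-null mice, with an interaction of 0.01 ± 0.15.

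Over the 19 member probe sets, the median difference was 0.06 for the average quercetin effect (14 above 0 and 5 below; 0.01 over all probe sets) and 0.00 for the average genotype effect (0.00 over all). Probe sets of a gene share their transcript, so these counts are not of independent items.

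The rest of the Wnt pathway stayed below the threshold as well. Of 27 measured pathway genes of 31 listed (ligands, receptors, the destruction complex, TCF/LEF factors and secreted inhibitors), 0 were called in either direction for the average quercetin or the average genotype effect, with medians of 0.00 in both. At an unadjusted p under 0.05, 2 were higher and 1 was lower with quercetin, and 1 was higher in POR-null mice. Over all probe sets, 7.82% had such a p for the average quercetin effect and 5.01% for the average genotype effect. These shares also apply to the lists that follow. The smallest p for quercetin were those of Wls, which carries Wnt ligands to the cell surface (0.25 ± 0.09; adjusted p = 0.564, limma), the kinase Gsk3b (-0.14 ± 0.06) and Axin1 (0.15 ± 0.07). For genotype they were Gsk3b (0.15 ± 0.06; adjusted p = 0.958), the co-receptor Lrp5 (0.18 ± 0.09) and Porcn, which attaches the lipid to Wnt proteins (0.16 ± 0.08). None of these differences was called.

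Of 16 measured further Wnt and crypt target genes (18 listed), 0 were called for either average, and 12 of 16 lay above 0 for quercetin with a median of 0.05. At an unadjusted p under 0.05, 3 were higher and 1 lower with quercetin, and 1 was higher and 1 lower for genotype. Cdca7 (0.17 ± 0.06), the matrix protease Mmp7 of Paneth cells (0.38 ± 0.14) and the ion carrier Slc12a2 (0.39 ± 0.14) had the smallest p, each with an adjusted p of 0.562 by limma. The gene that was lower with quercetin was Sp5, a transcription factor induced by Wnt, at -0.30 ± 0.12 (adjusted p = 0.613, limma). For genotype, Sp5 was at -0.31 ± 0.12 (adjusted p = 0.942), Id1 at 0.17 ± 0.08 and Tnfrsf19 at -0.11 ± 0.08. Of 12 measured further stem cell markers (17 listed), 0 were called (2 for quercetin and 0 for genotype at an unadjusted p under 0.05), 11 lay above 0 for quercetin and 3 for genotype, and the medians were 0.07 and -0.02. Those 2 were Cdca7 and Slc12a2, already counted among the target genes. Aldh1b1 (0.18 ± 0.11 for quercetin) and Hopx (-0.10 ± 0.08 for genotype) were the named genes of this list that the target list did not hold.

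Proliferation genes had the largest median of the 6 gene lists for quercetin, 0.15 over 19 measured genes (0.01 over all probe sets), with 18 of 19 above 0, 3 higher at an unadjusted p under 0.05 and 0 called. Mki67, the Ki-67 antigen of cycling cells, was at 0.35 ± 0.13 (adjusted p = 0.564, limma), the replicative helicase subunit Mcm6 at 0.21 ± 0.09 and thymidylate synthase Tyms at 0.19 ± 0.08. For genotype the median was -0.08, with Mki67 at -0.32 ± 0.13 (adjusted p = 0.941), Ccna2 at -0.18 ± 0.11 and Cdk1 at -0.16 ± 0.11. Beside these stands the Paneth list, whose median for quercetin was 0.38 over 5 genes, also with 0 called. In it 4 genes were higher at an unadjusted p under 0.05, among them Mmp7, which the target list also holds. The Paneth and proliferation lists, like the further target and stem cell lists, were lowest in the control pools named above, wild-type control pool 2 and POR-null control pool 3.

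The genes whose pool-to-pool pattern was most like each member were sought among 7375 bright genes, after each group's mean was taken off, over 12 pools. With so many genes and so few pools, high correlations arise easily, and the values are a description. Ccnd1 was closest to Krt19 (0.97), a keratin of ducts and intestinal epithelium, Tcp1 (0.96) and H2-DMa (0.96). Myc was closest to Igha (0.95), the immunoglobulin A heavy chain of plasma cells, Gtf2ird1 (0.94) and Ezh2 (0.92). Lgr5 was closest to Wdr83 (0.97), Ankmy2 (0.92) and Pde9a (0.92), and Axin2 to Psmb7 (0.93), Tada2a (0.92) and Epb41l5 (0.92). The search held only genes at or above the median of all probe sets, so Sox9, Myc, Bmi1 and Cd44 could not be found by it. None of the other members was among the 3 closest genes of another member. The closest genes were Anp32b (0.96), Mtss1 (0.95) and Ybx3 (0.95) for Ascl2 and Slc7a4 (0.95), Wbp4 (0.91) and D6Wsu163e (0.91) for Sox9. They were Col4a1 (0.94), Med24 (0.93) and Asb8 (0.92) for Lrig1, Naip5 (0.91), Ptprs (0.91) and Tpt1 (0.89) for Bmi1, and Arih1 (0.97), Cbx5 (0.96) and Bzw2 (0.96) for Cd44.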

How the data were processed

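RNA from 12 pools of jejunal epithelium was hybridised to 12 arrays. For every probe set the authors deposited a log2 intensity. MAS5 and RMA are both listed in the submitters' processing notes, and which of them gave these intensities is not stated there. Array medians were already alike, so no normalisation was added. The table had 22690 probe sets, of which 64 controls were dropped. In the platform annotation 20380 probe sets carried 1 symbol, 691 several and 1555 no symbol. A gene of a list was represented by its probe set with the highest mean.

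All 12 arrays entered a single model of group means (limma 3.58.1, R 4.3.3), with 8 degrees of freedom left for the residuals and 6.75 from the prior, and p was adjusted by Benjamini-Hochberg over 22626 probe sets within each of 7 comparisons. Exact permutation tests of 3 pools against 3 are two-sided. The pipeline was tested on simulated data. Python 3.11.15 with matplotlib 3.10.9 made the figures. The members and lists were chosen with earlier results of these data known. Named genes were all members, up to 3 genes with the smallest p of each average effect in each gene list, and the 3 genes most correlated with each member. The number of arrays limits the precision, and p-values measure the spread between pools only. Alternatives changed the normalisation, filters, variance model, array weights, probe set choice, marker covariates and pools used. Of these, 2 were added after the data were seen: leaving out the pools lowest in Paneth markers and using the Paneth mean as a covariate. The pools left out as high in smooth muscle were also picked by their measured values. Promoter windows and gene symbols came from RefSeq and the platform table.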

Additional observations from a re-analysis of the deposited data

How the results depend on the processing

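No member probe set was called in any comparison under any setting run. The direction of member differences, most of them close to 0, was less steady: of 1596 values with single pools left out 152 changed sign, and of 1588 under the 14 other settings 127 did. A sign change counted as a reversal only where the difference had an unadjusted p under 0.05 with or without the change, which left 1, the average quercetin difference of Ccnd1 1417420_at, at -0.44 with the Paneth mean as a covariate. Adjusted p of members by limma was 0.0773 or higher with single pools left out and 0.386 or higher otherwise. Counts over all probe sets were small and unsteady. For quercetin in wild-type mice, 3 were called, against 8 with the replicate block, 5 with each gene's probe sets averaged, 12 with the smooth muscle covariate, 0 with the distal minus proximal covariate, 17 without the pools high in smooth muscle (wild-type control pool 3 and POR-null control pool 1), 1 without the pools low in Paneth markers, 0 with the Paneth covariate and 0 to 23 with single pools left out (most without wild-type quercetin pool 1, none without wild-type quercetin pool 2 or 3). For the average quercetin effect, 2 were called, against 1 after quantile normalisation, 0 after the filter on dim probe sets, 4 with the trend and robust variance, 6 with the smooth muscle covariate, 1 with the distal minus proximal covariate, 9 without pools high in smooth muscle, 0 with the Paneth covariate and 1 to 8 with single pools left out. For genotype, 0 were called on either diet and in the average. On the control diet the count was 21 without the pools low in Paneth markers and 0 to 24 with single pools left out. On the quercetin diet it was 22 without the pools low in Paneth markers, 24 with only the arrays compared and 0 to 19 with single pools left out. The average genotype effect had 4 with the trend and robust variance, 20 with array weights, 1 with 1 probe set per gene, 1 with each gene's probe sets averaged, 1 with the distal minus proximal covariate, 40 without the pools low in Paneth markers, 15 with the Paneth covariate and 0 to 47 with single pools left out. With single pools left out, the highest count of each of these 3 genotype comparisons came without POR-null control pool 3. The interaction had 0 to 2 with single pools left out, against 0. The cause was not tested in these cases.

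No pairing of pools by replicate number was seen in the residuals. Those of pools with the same number correlated at -0.14 to 0.19 over 18 pairs, and those with other numbers at -0.26 to 0.24 over 36. With 3 pools per group, these ranges cannot exclude a factor shared by pools of the same number. The replicate block raised the count for quercetin in wild-type mice from 3 to 8 and left the members at 0.

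Of the member probe sets 11 of 19 were dimmer than the median of all probe sets. The values carry no detection calls, so it is not known which of them were above background.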

Other observations

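Other signals of the crypt niche and close relatives of the members were measured too. Of 17 measured Notch and BMP genes (18 listed), 0 were called by limma for either average effect and 1 had an unadjusted p under 0.05 in each. Over all probe sets, 7.82% had such a p for the average quercetin effect and 5.01% for the average genotype effect. Id1, the gene that passed for genotype, was also counted among the target genes above. For quercetin 13 of 17 lay above 0 with a median of 0.07 (0.01 over all probe sets), and the smallest p were those of the Notch target Hes5 (0.18 ± 0.07 log2 units, SE), the BMP ligand Bmp4 (0.18 ± 0.09) and Bmp2 (0.30 ± 0.16). For genotype the median was 0.02, with the BMP target Id1 at 0.17 ± 0.08, the Notch target Hes1 at 0.10 ± 0.07 and the signal transducer Smad4 at 0.09 ± 0.07.

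Of 14 measured genes related to the members (18 listed, among them receptors, D cyclins and Polycomb partners), 0 were called for either average effect. At an unadjusted p under 0.05, 2 passed for quercetin and 0 for genotype (7.82% and 5.01% of all probe sets). For quercetin the median was 0.03, with the Polycomb protein Pcgf2 at 0.15 ± 0.07, cyclin D2 (Ccnd2) at 0.25 ± 0.11 and Sox4 at 0.11 ± 0.07. For genotype it was 0.02, with the Polycomb ubiquitin ligase Rnf2 at -0.19 ± 0.10, Pcgf2 at -0.08 ± 0.07 and Mycn at 0.04 ± 0.06.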
